A study of Mus musculus with 4 samples.

Results

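The Nrf2 antioxidant response was followed in mouse female germline stem cells (FGSCs) through 10 named genes, *Nfe2l2*, *Keap1*, *Hmox1*, *Nqo1*, *Gclc*, *Gclm*, *Txnrd1*, *Srxn1*, *Prdx1* and *Sqstm1*, taken by symbol from a table of 53465 genes. The rule that picks them uses gene symbols and no measured value, although the set was drawn up with earlier results of these data known. All 10 were found in the table and all 10 were expressed above the limit set for testing. The cells were an FGSC line of ovarian origin that had been infected with lentivirus and drug-selected. Controls (shNC) carried a control short hairpin RNA, and knockdown cells (shNAT10) carried a hairpin against *Nat10*, which encodes the enzyme that writes N4-acetylcytidine (ac4C) on RNA. Both groups therefore shared the infection and the selection. Each group had 2 biological replicates. Which of the hairpins designed against *Nat10* was used for these libraries is not given in the sources used here, and the age of the animals behind the line is likewise not given there.

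Nrf2, the product of *Nfe2l2*, is a transcription factor that is normally held in the cytoplasm by Keap1 and handed to a Cul3 ubiquitin ligase for destruction. When oxidants or electrophiles modify cysteines of Keap1, Nrf2 escapes, enters the nucleus, pairs with a small Maf protein and binds antioxidant response elements (AREs) near genes for glutathione synthesis, the thioredoxin system, quinone reduction and heme breakdown. p62, the product of *Sqstm1*, is an autophagy receptor that can bind Keap1 in place of Nrf2, so that it acts on the pathway as well as being a target of it. Nrf2 itself is controlled largely at the protein level, which RNA sequencing does not measure.

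The ARE core is written TGACNNNGC, and it is shown here because it is the sequence through which Nrf2 reads these genes. It was searched on both strands in RefSeq promoter windows of the GRCm38.p6 build that run from 250 bases before to 50 after each transcript start. Windows were held for 8 of the 10 genes, the missing entries being *Hmox1* and *Gclc*. A match was present for 5 of the 8 genes (62.5%), against 3781 of 27025 genes in the whole window set (13.99%) and 20 of 125 further antioxidant genes (16.0%). The windows of *Keap1*, *Nqo1* and *Sqstm1* held no match to these letters. Sequence outside the windows was not searched, so these genes may hold a match elsewhere. The 4 matches lying before the start are printed 5′ to 3′ on the minus strand, with the core in capitals. The end of the core farther from the start lies 133 bases before it for *Prdx1* (chr4:116685456-116685484), 134 for *Gclm* (chr3:122245413-122245441), 240 for *Nfe2l2* (chr2:75704885-75704913) and 92 for *Txnrd1* (chr10:82859104-82859132, in 1 of its 3 windows).
Prdx1: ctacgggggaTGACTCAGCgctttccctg
Gclm: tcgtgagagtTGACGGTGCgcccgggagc
Nfe2l2: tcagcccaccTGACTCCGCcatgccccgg
Txnrd1: cgtgtcagaaTGACAAAGCaaaaatccag
The *Prdx1* core also holds the letters TGANTCA of an AP-1 site, which overlaps it. A match of letters is a description of the window, and no binding was measured.

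Long RNA-seq was read as FPKM, a level that the deposited table gives for each gene and library. FPKM is scaled for exon length and by a factor for each library. The libraries held 11057922 to 14902438 fragments assigned to genes, as recovered from the FPKM steps. Each of the 10 genes rested on 170 to 10692 fragments per library. The scaling factor, recovered from the same steps, was not this fragment total. It lay below the total in both shNC libraries and above it in both shNAT10 libraries. *Nat10*, the targeted gene, stood at 7.79 and 5.42 FPKM in shNC and at 2.95 and 3.04 in shNAT10, a log2 fold change of -1.09 (SE 0.21, limma adjusted p = 0.123) that passed the threshold used for calls. That call was lost without shNAT10 replicate 1 (log2 fold change -1.07) or replicate 2 (-1.11). Loci related to ribosomal RNA took 48.0% and 37.9% of the fragments in shNC and 26.3% and 28.2% in shNAT10. Of 13 germline markers, *Dazl*, *Pou5f1*, *Dppa3*, *Tfap2c* and *Stra8* were at 0 in all 4 libraries and only *Ifitm3* and *Kit* reached a mean of 1 FPKM. *Ddx4*, a germ cell marker used by the authors, was at 0.0529 FPKM in shNAT10 replicate 1 and at 0 in the other libraries. The germline list summed to 34.9 and 44.6 FPKM in shNC and 43.2 and 50.9 in shNAT10. The summed level of 10 leukocyte markers was 622 and 699 FPKM in shNC and 498 and 513 in shNAT10, with 7 of the 10 called lower by the threshold given below, all 10 below 0 in log2 fold change and none of this list at 0. With a library left out, *Spi1* (-0.13) reached 0.13 and *Coro1a* (-0.04) reached 0.09. The summed mast cell list was 322 and 332 FPKM in shNC and 330 and 325 in shNAT10, with *Fcer1a*, *Tpsb2* and *Mrgprb1* at 0. Most of that sum was *Cpa3* (245 and 262 FPKM in shNC, 272 and 267 in shNAT10), while *Kit* (log2 fold change -0.60), *Gata2* (-0.33) and *Mitf* (-0.39) were called lower and *Ms4a2* (2.12) higher. The fibroblast list summed to 106 and 111 FPKM in shNC and 111 and 99.3 in shNAT10, with *Lum* at 0, *Col3a1* (0.98), *Pdgfra* (0.83) and *Thy1* (0.76) called higher and *Fn1* called lower. The part of these shifts in the results below was not tested, and in bulk RNA fewer cells of a type and less RNA per cell cannot be told apart.

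A gene was called a differentially expressed gene (DEG) at the threshold of the study, a fold change over 1.2 with an unadjusted p of at most 0.05, here from limma on log2(FPKM + 0.1). *Nqo1*, *Prdx1* and *Gclm* rose in shNAT10, *Hmox1* and *Sqstm1* fell, and *Nfe2l2*, *Keap1*, *Gclc*, *Txnrd1* and *Srxn1* did not pass. The 5 DEGs among 10 genes stand beside 16.2% of the 20116 genes tested, and beside 24.4% of the 7978 genes with a mean of at least 3 FPKM, a comparison chosen after the values were seen because all 10 genes lie above that level. By direction, 3 of 10 were higher against 8.41% of all genes tested, and 2 of 10 were lower against 7.83%. Among the 7978 genes with a mean of at least 3 FPKM, 930 were higher and 1018 lower. The groups did not overlap for 6 of the 10 genes, against 48.0% of all genes tested and 4607 of those 7978. The median log2 fold change of the 10 genes was 0.16, against 0.01 over all genes tested, with 7 above 0 and 3 below.

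The limma p-values rest on the spread between 2 libraries a group, drawn towards the spread of other genes of similar level. After Benjamini-Hochberg adjustment over all genes in limma, none of the 10 fell under 0.05, and the smallest adjusted p was 0.0513. At an unadjusted p under 0.05 the count was 5. When the recovered fragments were tested with limma-voom, the same 5 genes had an adjusted p under 0.05, against 7.87% of the 20077 genes in that fit. An exact permutation test of any single gene in 2 against 2 libraries cannot go below p = 0.3333.

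**Figure D1:**
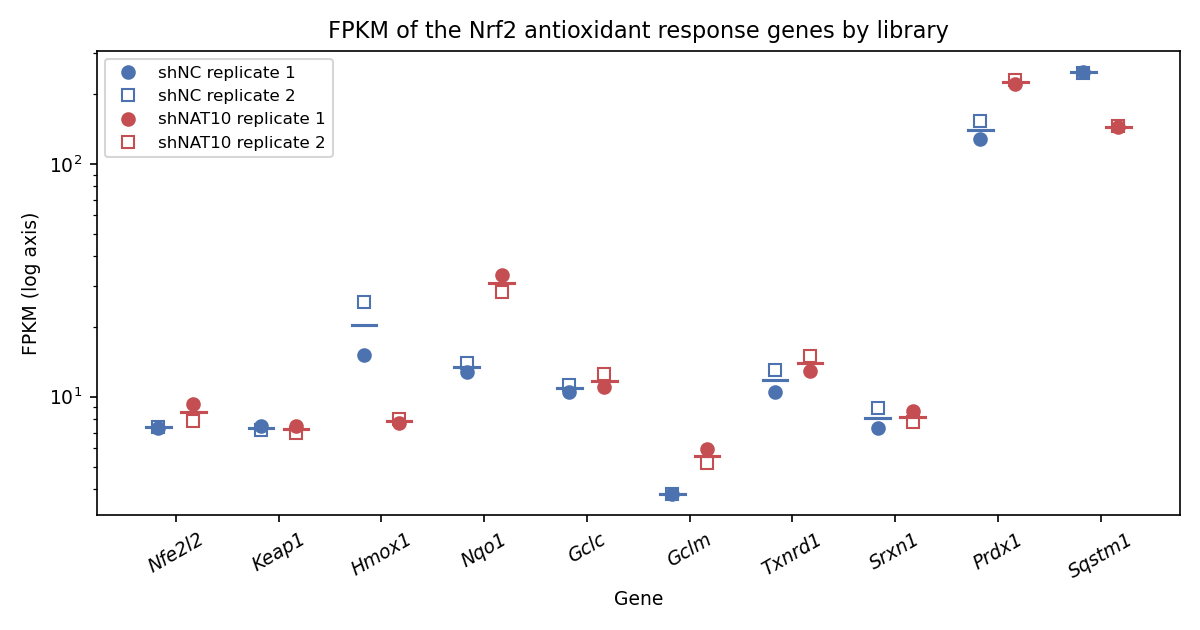
FPKM of the 10 genes (log axis) in each library, with shNC in blue and shNAT10 in red, replicate 1 as filled circles, replicate 2 as open squares and a bar at each group mean. *Sqstm1* and *Prdx1* sit at 127 FPKM or more in every library while the other 8 lie between 3.82 and 33.2, and *Hmox1* shows the widest gap between replicates, in shNC.

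The regulators of the pathway are described first. *Nfe2l2* (ENSMUSG00000015839, GRCm38 chromosome 2, 75675513 to 75704641, minus strand) was at 7.36 and 7.41 FPKM in shNC and at 9.32 and 7.82 in shNAT10. Both shNAT10 libraries lay above both controls, but the second by little. The log2 fold change was 0.21 (SE 0.13, 95% interval -0.13 to 0.54, limma adjusted p = 0.505), which did not pass. Without shNAT10 replicate 2 it was 0.33 and passed, and without shNAT10 replicate 1 it was 0.08, so the call depended on the library.

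*Keap1* (ENSMUSG00000003308, chromosome 9, 21229730 to 21239361, minus strand), the adaptor that presents Nrf2 to the ligase, was at 7.49 and 7.20 FPKM in shNC and at 7.50 and 6.96 in shNAT10. The groups overlapped. Its log2 fold change was -0.02 (SE 0.11, limma adjusted p = 0.940), with a 95% interval from -0.31 to 0.26, and it turned to 0.05 when the libraries were brought to equal FPKM sums after the ribosomal RNA-related loci had been set aside. The ratio of *Nfe2l2* to *Keap1* in FPKM was 0.982 and 1.03 in the control libraries and 1.24 and 1.12 in the knockdown libraries. *Keap1* shares 510 exonic bases with the antisense gene *Gm16754*, and whether the counting used strand is not given in the sources used here. *Gm16754* was at 2.77 and 3.03 FPKM in shNC and at 3.78 and 3.55 in shNAT10, and its part in the *Keap1* value was not tested.

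*Sqstm1* (ENSMUSG00000015837, chromosome 11, 50199366 to 50210827, minus strand) was the most abundant of the 10 genes in shNC. It was at 249 and 246 FPKM in shNC and at 144 and 145 in shNAT10. The replicates of each group nearly coincided and the groups were far apart. The log2 fold change was -0.78 (SE 0.08, 95% interval -0.98 to -0.57, limma adjusted p = 0.0513), a level 1.71-fold higher in shNC. It lay between -0.78 and -0.77 with any library left out, and the call was kept in each case. *Sqstm1* overlaps the antisense gene *Mrnip* by 580 exonic bases. *Mrnip* was at 2.30 and 1.98 FPKM in shNC and at 2.77 and 3.01 in shNAT10, far below *Sqstm1* in every library.

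Glutathione is made from cysteine, glutamate and glycine, and its rate is set by glutamate-cysteine ligase, an enzyme of a catalytic subunit (*Gclc*) and a modifier subunit (*Gclm*) that raises its efficiency. *Gclm* (ENSMUSG00000028124, chromosome 3, 122245557 to 122270732, plus strand) was at 3.82 and 3.82 FPKM in shNC and at 5.96 and 5.19 in shNAT10. It rose by a log2 fold change of 0.53 (SE 0.13, 95% interval 0.19 to 0.88, limma adjusted p = 0.181). The call was lost without shNC replicate 1 or 2 (log2 fold change 0.53 each) or shNAT10 replicate 1 (0.44). *Gclm* also overlaps a pseudogene related to *Ppia*, *Gm6061*, on its own strand, at 2.25 and 1.71 FPKM in shNC and at 3.08 and 1.19 in shNAT10. Of the 50-base stretches of *Gclm* exons, 3.25% also occur in *Ppia*, which was at 385 and 411 FPKM in shNC and at 384 and 374 in shNAT10, and 3.07% in its pseudogene *Gm10123*, at 30.6 and 39.7 FPKM against 38.1 and 34.6. Fragments from these genes could therefore have been counted for *Gclm*, whose value is uncertain to that extent, and their part in the result was not tested.

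*Gclc* (ENSMUSG00000032350, chromosome 9, 77754535 to 77794485, plus strand) was at 10.5 and 11.2 FPKM in shNC and at 10.9 and 12.5 in shNAT10. The groups overlapped, and the log2 fold change was 0.11 (SE 0.11, 95% interval -0.19 to 0.41, limma adjusted p = 0.667), from 0.01 without shNAT10 replicate 2 to 0.21 without shNAT10 replicate 1. The ratio of *Gclm* to *Gclc* in FPKM was 0.365 and 0.341 in shNC and 0.545 and 0.415 in shNAT10. The ratio of these transcript levels was below 1 in every library and higher in both knockdown libraries, with the uncertainty of the *Gclm* value given above.

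The thioredoxin arm reduces protein disulfides and peroxides. *Prdx1* (ENSMUSG00000028691, chromosome 4, 116685544 to 116700822, plus strand), a peroxiredoxin that removes hydrogen peroxide and is among the most abundant proteins of many cells, was at 127 and 154 FPKM in shNC and at 220 and 229 in shNAT10. Both knockdown libraries lay above both controls. *Prdx1* rose by a log2 fold change of 0.68 (SE 0.12, 95% interval 0.37 to 1.00, limma adjusted p = 0.114), or 1.61-fold. The call was lost without shNAT10 replicate 1 (log2 fold change 0.71) or replicate 2 (0.65).

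*Txnrd1* (ENSMUSG00000020250, chromosome 10, 82833951 to 82897712, plus strand), the cytosolic thioredoxin reductase, was at 10.5 and 13.0 FPKM in shNC and at 12.9 and 14.9 in shNAT10. *Srxn1* (ENSMUSG00000032802, chromosome 2, 152105516 to 152111376, plus strand), which repairs overoxidised peroxiredoxins, was at 7.31 and 8.93 FPKM in shNC and at 8.65 and 7.77 in shNAT10. The groups overlapped for both genes. Their log2 fold changes were 0.25 (SE 0.15, 95% interval -0.15 to 0.65, limma adjusted p = 0.497) for *Txnrd1* and 0.02 (SE 0.14, 95% interval -0.36 to 0.40, limma adjusted p = 0.961) for *Srxn1*. *Txnrd1* was at 0.09 without shNC replicate 1 and at 0.40 without shNC replicate 2, and did not pass in either case. The ratio of *Srxn1* to *Prdx1* in FPKM was 0.0573 and 0.0582 in shNC and 0.0393 and 0.0339 in shNAT10.

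*Nqo1* (ENSMUSG00000003849, chromosome 8, 107388225 to 107403206, minus strand), a quinone reductase widely read as a marker of Nrf2 activity, was at 12.7 and 14.0 FPKM in shNC and at 33.2 and 28.1 in shNAT10. The groups did not overlap, and replicate 1 was the higher of the knockdown libraries. It rose by a log2 fold change of 1.19 (SE 0.12, 95% interval 0.86 to 1.51, limma adjusted p = 0.0526), or 2.28-fold, the largest rise among the 10 genes. The fold change lay between 1.07 and 1.31 with any library left out, and the call was kept in each case.

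*Hmox1* (ENSMUSG00000005413, chromosome 8, 75093621 to 75100589, plus strand) encodes heme oxygenase 1, which opens heme into biliverdin, carbon monoxide and iron and is repressed by Bach1 as well as driven by Nrf2. It was at 15.1 and 25.6 FPKM in shNC and at 7.73 and 8.01 in shNAT10. The controls differed from each other, and both knockdown libraries lay below both. The log2 fold change was -1.31 (SE 0.26, 95% interval -2.01 to -0.61, limma adjusted p = 0.134), with values from -1.69 to -0.93 when a library was left out. The call was lost without shNAT10 replicate 1 (-1.29) or replicate 2 (-1.34). *Hmox1* is also a gene of macrophages, whose 10 markers summed to 51.4 and 54.6 FPKM in shNC and to 42.3 and 46.9 in shNAT10, with *C1qa*, *C1qb*, *C1qc* and *Marco* at 0. Most of that sum was *Adgre1*, called lower at 44.7 and 47.8 FPKM in shNC and 33.2 and 38.5 in shNAT10, whereas *Lyz2* was called higher at 0.453 and 0.384 FPKM against 0.969 and 1.54. The part of these genes in the *Hmox1* result was not tested. The ratio of *Nqo1* to *Hmox1* in FPKM was 0.841 and 0.547 in shNC and 4.29 and 3.50 in shNAT10.

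**Figure D2:**
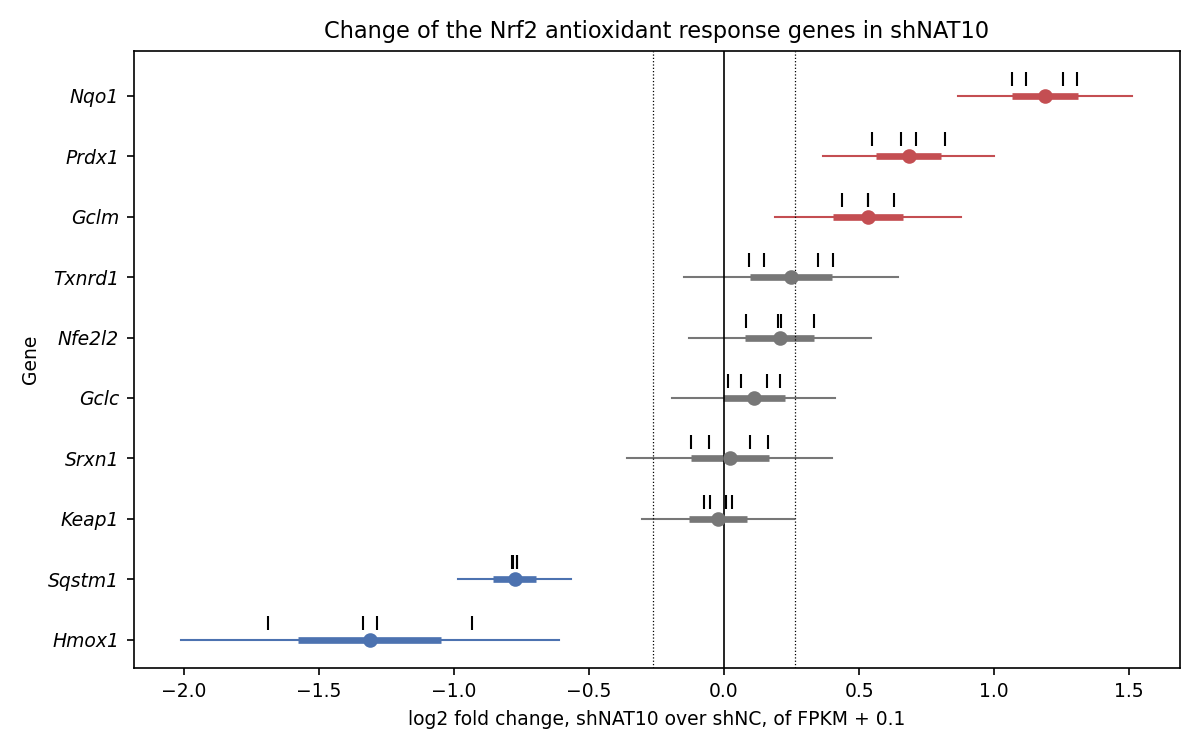
Log2 fold change (shNAT10 over shNC, of FPKM + 0.1) of each gene, as a point with its SE (thick bar) and 95% interval (thin line), where red marks DEGs higher in shNAT10, blue DEGs lower and grey genes that did not pass. Ticks above each point are the values with each library left out, dotted lines mark the 1.2-fold limit, and *Nqo1* at 1.19 and *Hmox1* at -1.31 are the outer points.

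By level in FPKM, *Sqstm1* (247 on average) and *Prdx1* (140.5) led in shNC, followed by *Hmox1* (20.4) and *Nqo1* (13.4), with *Gclm* (3.82) last. In shNAT10 *Prdx1* (224.7) led *Sqstm1* (144.5), *Nqo1* (30.6) came next, and *Hmox1* (7.87) lay below *Srxn1* (8.21). The ratio of *Sqstm1* to *Prdx1* went from 1.95 and 1.60 in the controls to 0.652 and 0.634 in the knockdown libraries. In shNC the neighbours *Nqo1* and *Txnrd1*, *Txnrd1* and *Gclc*, *Srxn1* and *Nfe2l2*, and *Nfe2l2* and *Keap1* overlapped in range. In shNAT10 *Nfe2l2* overlapped *Srxn1*, and *Srxn1* overlapped *Hmox1*.

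The wider antioxidant system was read from 11 lists of 151 further genes, of which 127 were tested. Of these, 19 rose and 12 fell (24.4%), beside 16.2% of all genes tested and the same 24.4% of genes with a mean of at least 3 FPKM, and their median log2 fold change was -0.01. In every list below, the counts stand beside 8.41% of all genes tested higher and 7.83% lower. None had an adjusted p under 0.05 in limma (smallest 0.0507), while 31 were DEGs at the unadjusted threshold and 20 had an adjusted p under 0.05 in limma-voom, beside 7.87% of all genes in that fit. Of the 30 DEGs named below under the naming rule, 8 kept the call with each library left out in turn, namely *Chac1*, *Gpx8*, *Gsta4*, *Mgst1*, *Mgst2*, *Txnip*, *Tfrc* and *Sod2*, while the other 22 lost it without at least 1 of the 4 libraries. The calls lost numbered 12 and 13 without shNC replicate 1 and 2, and 14 and 15 without shNAT10 replicate 1 and 2. Under the 10 alternatives that used all 4 libraries, 16 of the 30 kept the call throughout. Median-ratio rescaling was among them and is no check, its factor being equal in every library. Limma without the trend ended the calls of *Palb2*, *Slc3a2*, *Prdx3*, *Sesn2*, *Txn2*, *Pgd*, *Mthfd1*, *Slc48a1*, *Trib3*, *Akr1b8*, *Nqo2*, *Ephx1* and *Tax1bp1*, and the replicate block ended those of *Palb2*, *Sesn2*, *Sesn3* and *Txn2*.

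**Figure D3:**
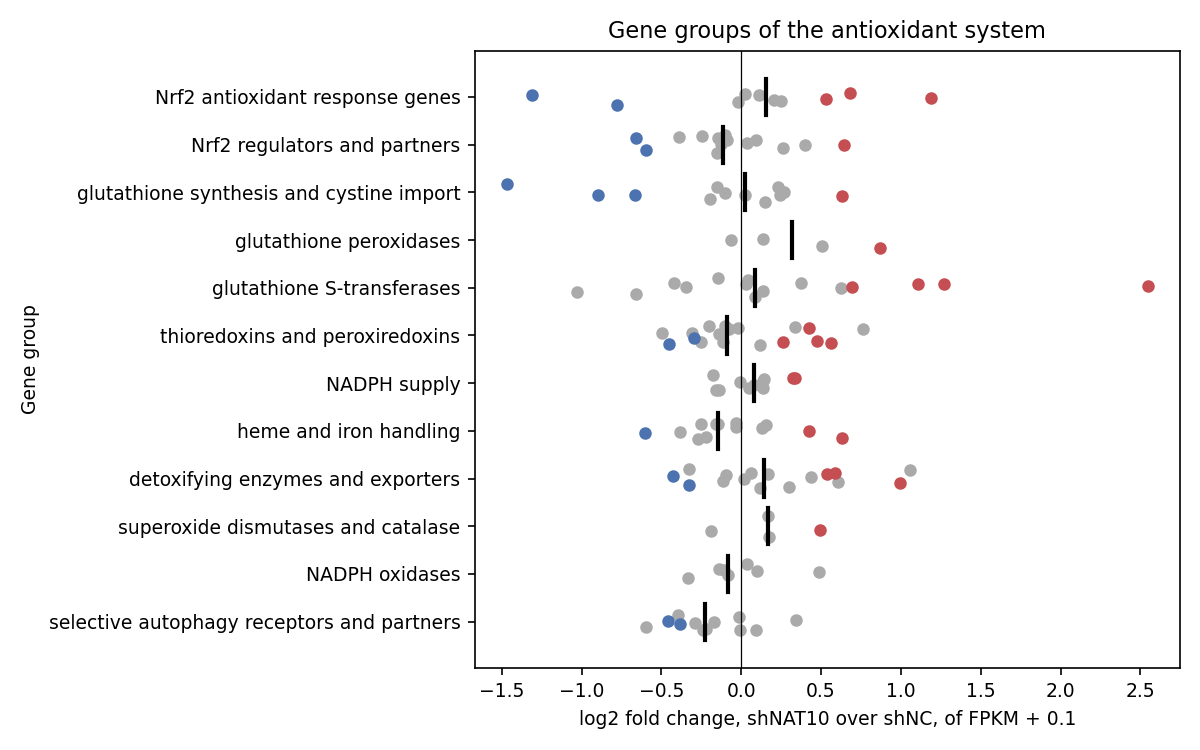
Log2 fold change (shNAT10 over shNC, of FPKM + 0.1) of each tested gene of the 10 Nrf2 response genes and of the 11 further lists, with list medians as black bars, DEGs higher in red, DEGs lower in blue and other genes in grey. Medians lie between -0.23 for the autophagy receptors and 0.32 for the glutathione peroxidases, and calls in both directions occur within 6 of the 12 rows.

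Among the partners of Nrf2, 1 of 14 tested genes rose and 2 fell (list median -0.11). *Nfe2l1*, a related factor that drives proteasome genes, was at 104 and 89.7 FPKM in shNC and at 59.1 and 63.4 in shNAT10 (log2 fold change -0.66, SE 0.11, limma adjusted p = 0.103). *Maff*, a small Maf partner, was at 7.51 and 7.59 FPKM against 5.60 and 4.40 (log2 fold change -0.60). *Palb2*, a DNA repair protein that also binds Keap1, was at 1.44 and 1.01 FPKM against 1.91 and 1.97 (log2 fold change 0.64), a call that was also lost with no filter on low values and with a filter at a mean of 1 FPKM. Without shNC replicate 2 the fold change of *Palb2* was 0.41. *Dpp3*, a peptidase that competes for Keap1, and *Skp1a*, a ligase subunit, had log2 fold changes of -0.14 and 0.09 and did not pass.

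In glutathione synthesis and cystine import, 1 of 13 tested genes rose and 3 fell (median 0.03). *Chac1*, which degrades glutathione, was at 26.7 and 26.6 FPKM in shNC and at 14.8 and 13.8 in shNAT10 (log2 fold change -0.89, SE 0.09, limma adjusted p = 0.0507). *Cth*, which makes cysteine from cystathionine, was at 3.17 and 3.05 FPKM against 0.771 and 1.45 (log2 fold change -1.47). *Slc3a2*, the heavy chain of the cystine importer and of other amino acid carriers, was at 87.3 and 62.1 FPKM against 46.1 and 46.6 (log2 fold change -0.67, or -0.42 without shNC replicate 1). *Chac2*, a slower relative of *Chac1*, rose by 0.63 on the log2 scale. *Glrx3* (0.23) and *Glrx5* (0.24), glutaredoxins of iron-sulfur cluster assembly, did not pass.

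Of 4 glutathione peroxidases tested, *Gpx8*, an enzyme of the endoplasmic reticulum, rose from 19.4 and 20.4 FPKM to 35.5 and 37.4 (log2 fold change 0.87, SE 0.09, limma adjusted p = 0.0507). *Gpx4*, which clears lipid peroxides, and *Gpx1*, the main cytosolic peroxidase, had log2 fold changes of -0.06 and 0.14 and did not pass. Of 15 glutathione S-transferases tested, 4 rose and none fell (median 0.09), beside 8.41% of all genes tested that were higher. *Gsta4*, which conjugates lipid aldehydes, was at 0.269 and 0.200 FPKM in shNC and at 2.27 and 1.49 in shNAT10 (log2 fold change 2.55), where the controls held only 4 and 3 fragments. *Mgst1* (log2 fold change 1.11), *Mgst2* (1.27) and *Mgst3* (0.70), all membrane-bound enzymes, rose as well. *Gstp1* at -0.15 and *Gsto1* at 0.09, the most abundant genes of the list that did not pass, lay near 0.

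All 18 thioredoxin and peroxiredoxin genes were tested, and 4 rose while 2 fell (median -0.09). *Txnip*, which inhibits thioredoxin, rose from 19.7 and 19.2 FPKM to 27.6 and 26.7 (log2 fold change 0.48, SE 0.08, limma adjusted p = 0.111). *Sesn3* (0.56) and mitochondrial *Txn2* (0.26) were higher, and mitochondrial *Prdx3* (-0.30) and *Sesn2* (-0.45) were lower, each as a log2 fold change. With equal FPKM sums *Prdx3* and *Sesn2*, like *Nqo2* below, were no longer called, nor was *Txn2* with a pseudocount of 1. The remaining call, *Prdx2* (0.43), was named after its value was seen, and without shNAT10 replicate 1 it was 0.25, under the 1.2-fold limit. *Txn1* (-0.14) and *Prdx5* (-0.10) did not pass.

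Among 11 genes of NADPH supply, *Pgd*, an enzyme of the pentose phosphate pathway, and *Mthfd1*, of folate metabolism, rose by 0.33 and 0.34 on the log2 scale, and none fell (median 0.08). Without shNAT10 replicate 2, *Mthfd1* was at 0.22, under the 1.2-fold limit. *Taldo1* (0.08) and *Tkt* (-0.01) did not pass. In heme and iron handling, 2 of 13 tested genes rose and 1 fell (median -0.14). *Tfrc*, the transferrin receptor, was at 143 and 156 FPKM in shNC and at 98.7 and 98.0 in shNAT10 (log2 fold change -0.60, SE 0.09, limma adjusted p = 0.0842). *Fech*, which inserts iron into protoporphyrin to form heme, rose from 6.57 and 6.97 FPKM to 11.4 and 9.80 (log2 fold change 0.63), and *Slc48a1*, a heme transporter, rose by 0.42 on the log2 scale. The ferritin chains *Fth1* (-0.04) and *Ftl1* (-0.16) did not pass.

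Of 16 detoxifying enzymes and exporters tested, 3 rose and 2 fell (median 0.14). *Ephx1*, an epoxide hydrolase, was at 3.01 and 6.09 FPKM in shNC and at 8.34 and 8.93 in shNAT10 (log2 fold change 0.99). The controls differed, and the fold change of *Ephx1* was 0.50 without shNC replicate 1 and 1.49 without shNC replicate 2. *Cbr3* (0.59) and *Akr1b8* (0.54), carbonyl-reducing enzymes, were higher, and *Nqo2* (-0.33), the quinone reductase related to *Nqo1*, and *Trib3* (-0.43), a pseudokinase of stress responses, were lower. *Akr1a1* (0.02) and *Ptgr1* (0.16) did not pass. Of 4 superoxide dismutase and catalase genes tested, mitochondrial *Sod2* rose from 9.75 ± 0.41 to 13.8 ± 0.03 FPKM (mean ± SD, n = 2 each) (log2 fold change 0.49, SE 0.09, limma adjusted p = 0.124), while *Sod1* (-0.19) and *Cat* (0.17) did not pass (median 0.17). With a library left out, *Sod1* lay between -0.34 and -0.04.

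None of the 7 NADPH oxidase genes tested was called in either direction (median -0.09), with *Cyba*, a membrane subunit of the oxidase, at 0.04 on the log2 scale. Of 12 selective autophagy receptors and partners, which act beside p62, 2 fell and none rose (median -0.23). *Tax1bp1*, a receptor, was at 39.9 and 45.2 FPKM in shNC and at 33.3 and 31.7 in shNAT10 (log2 fold change -0.39, limma adjusted p = 0.192). *Traf6*, a ubiquitin ligase that binds p62, fell by 0.46 on the log2 scale, and *Gabarap* (-0.29) and *Gabarapl1* (-0.17) did not pass. With a library left out, *Gabarap* ranged from -0.45 to -0.14 and *Gabarapl1* from -0.29 to -0.04.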

How the data were processed

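Long RNA-seq of 2 shNC and 2 shNAT10 libraries was analysed. Per the labels, cutadapt, HISAT2 and DESeq2 were used with the mm10 build. The authors' methods describe rRNA depletion, while the labels describe mRNA isolation. The counter and annotation are not given in the sources used here. The authors deposited FPKM values per gene. A second table, with their own fold changes and p-values, was not used. Levels were tested as log2(FPKM + 0.1) with limma 3.58.1 in R 4.3.3 (two-sided, trend, Benjamini-Hochberg adjustment) over the 20116 genes averaging 0.1 FPKM or more. Fragments were recovered from the FPKM steps and GENCODE M21 exon lengths (96.0% to 96.6% of values under 50 fragments lay within 0.02 of whole) and tested with limma-voom as an alternative. Fold changes of low genes are understated by the pseudocount. Groups came from the sample labels. The genes, lists and naming rule (per list, at most 5 DEGs with a mean FPKM of at least 1, and at most 2 others by level, of which 1 gene is not reported here) were chosen with earlier results of these data known. The fits were tested on simulated data. Alternatives changed the pseudocount, filter, scaling, model and replicate block, or left out a library.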

Additional observations from a re-analysis of the deposited data

How the results depend on the processing

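The 5 calls among the 10 genes were kept under all 10 alternatives that used all 4 libraries. Median-ratio rescaling, 1 of these, is no check, because its factor was the same (1.004) in every library. With a library left out, where the lone library of its group is assumed to vary like the other group, the count of genes higher ranged from 1 to 3 and of genes lower from 1 to 2, and the median log2 fold change from 0.08 to 0.19. Among the 127 further genes, 8 to 17 were higher and 7 to 10 lower, against 19 and 12, and limma without the trend gave 7 lower. Over all genes tested, the counts were 1108 to 1734 higher and 899 to 1659 lower, with the lowest values without shNAT10 replicate 1, against 1691 and 1576. An adjusted p under 0.05 was reached by 0 of the 10 genes as reported, 1 when the libraries were brought to equal FPKM sums with the ribosomal RNA-related loci set aside (which moved the median of all genes to 0.07), 2 with quantile normalization, 2 at a mean FPKM of at least 1 and 5 with limma-voom. Same-numbered replicates did not deviate together (r = 0.00711), so no shared replicate effect was seen. Whether they were prepared in parallel is not given in the sources used here. The fit with the replicate block gave 3 of the 10 higher and 2 lower, 17 and 11 further genes, and 1587 and 1527 over all genes tested. Bringing the libraries to equal FPKM sums gave 2139 genes higher and 1138 lower over all genes tested, and 23 and 9 among the further genes. Log2 fold changes near 0 turned sign. With equal FPKM sums, *Keap1* was at 0.048, *Gpx4* at 0.00792, *Tkt* at 0.063 and *Fth1* at 0.036, and with quantile normalization *Tkt* was at 0.00272 and *Akr1a1* at -0.017. With a library left out, the ranges were -0.076 to 0.031 for *Keap1*, -0.12 to 0.16 for *Srxn1*, -0.019 to 0.21 for *Skp1a*, -0.16 to 0.034 for *Gpx4*, -0.00778 to 0.28 for *Gpx1*, -0.30 to 0.029 for *Txn1*, -0.068 to 0.051 for *Tkt*, -0.14 to 0.067 for *Fth1*, -0.42 to 0.10 for *Ftl1*, -0.11 to 0.14 for *Akr1a1* and -0.16 to 0.24 for *Cyba*. The causes were not tested.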
